A study of Mus musculus with 9 samples.

Results

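The 35 genes described here belong to the heat shock response and the unfolded protein response (UPR). They were chosen by function from a fixed list of symbols, with earlier results of these data known. All 35 were found among the 55655 rows of the deposited tables. They comprised 4 cytosolic chaperones of the HSP70 and HSP110 families, 2 of the HSP90 family, 4 J proteins, small heat shock proteins and cochaperones of the cytosol, 2 heat shock factors, 3 mitochondrial chaperones, 11 chaperones and folding enzymes of the endoplasmic reticulum (ER), 3 UPR sensors, and 6 factors and targets of the UPR and the integrated stress response (ISR). The ISR is the branch in which phosphorylation of the initiation factor eIF2α slows translation and lets ATF4 be made.

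Heat shock factors are held inactive in unstressed cells and drive chaperone genes when unfolded proteins accumulate in the cytosol. In the ER, the sensors IRE1, PERK and ATF6 respond to unfolded proteins by splicing Xbp1 mRNA, by phosphorylating eIF2α, and by release of an ATF6 fragment that enters the nucleus. Macrophages that secrete large amounts of cytokine load the ER with client proteins, and signalling through Toll-like receptors is known to engage parts of both systems.

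Bone marrow-derived macrophages were grown from the femur and tibia of wild-type C57BL/6 mice aged 6 to 8 weeks, with 10 ng/mL M-CSF for 7 days. M0 cells were left unpolarized and had no photobiomodulation (PBM), a treatment with low-level near-infrared light. M1 cells received 100 ng/mL LPS and 20 ng/mL IFN-γ and were kept in a dark chamber, and M1+PBM cells received the same and were irradiated at 6 mW/cm2 for 7 minutes every 12 hours, with collection at 12 hours. RNA was sequenced from 3 libraries of each of the 3 groups, and expression was deposited as FPKM, fragments scaled to transcript length and to library depth, so that levels of different genes can be set beside each other. All cells were cultured outside the animal, which limits them as a model of macrophages in tissue. The study describes its experiments as repeated independently, but the labels tie no library to a culture or animal, and p-values measure the spread between these 3 libraries a group. In bulk RNA, fewer cells of a type and less RNA per cell cannot be told apart.

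Library composition was checked with marker lists. All 8 macrophage markers were expressed, with summed FPKM between 5476 and 10378. Of the 9 neutrophil markers, S100a9 and Ly6g were listed at 0 in all 9 libraries. M0 replicate 3 stood apart, because its 6 stromal markers summed to 181 FPKM against 5.28 to 6.49 in the other M0 libraries, and Tnf was at 233 FPKM there against 14.9 and 16.9. The hepatocyte markers summed to 14.5 FPKM in M1 replicate 2 and to at most 0.227 elsewhere. M1 polarization was visible in Nos2, the inducible nitric oxide synthase, which ranged from 0.0133 to 1.79 FPKM in M0, from 112 to 290.0 in M1 and from 65.9 to 88.8 in M1+PBM. The M0 table was deposited apart from the table of the other 6 libraries, so M0 values are set beside M1 values with no test.

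The most abundant of the 35 transcripts were constitutive chaperones. In M1, Hspa8 averaged 434 FPKM ± 70.0 (SD, n = 3) and Hsp90ab1 434 ± 34.2 (SD, n = 3), which do not differ beyond their spread. Calr followed at 171 ± 46.6 (SD, n = 3), then Hspa5 at 120 ± 21.9 (SD, n = 3) and Hsp90b1 at 81.2 ± 19.3 (SD, n = 3). In M0 the order was Hsp90ab1 (260 ± 63.1), Calr (241 ± 51.5) and Hspa8 (225 ± 73.0), again within their spread. At the other end stood Hspb1, which averaged 0.734 FPKM in M1 and 0.854 in M0.

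**Figure D1:**
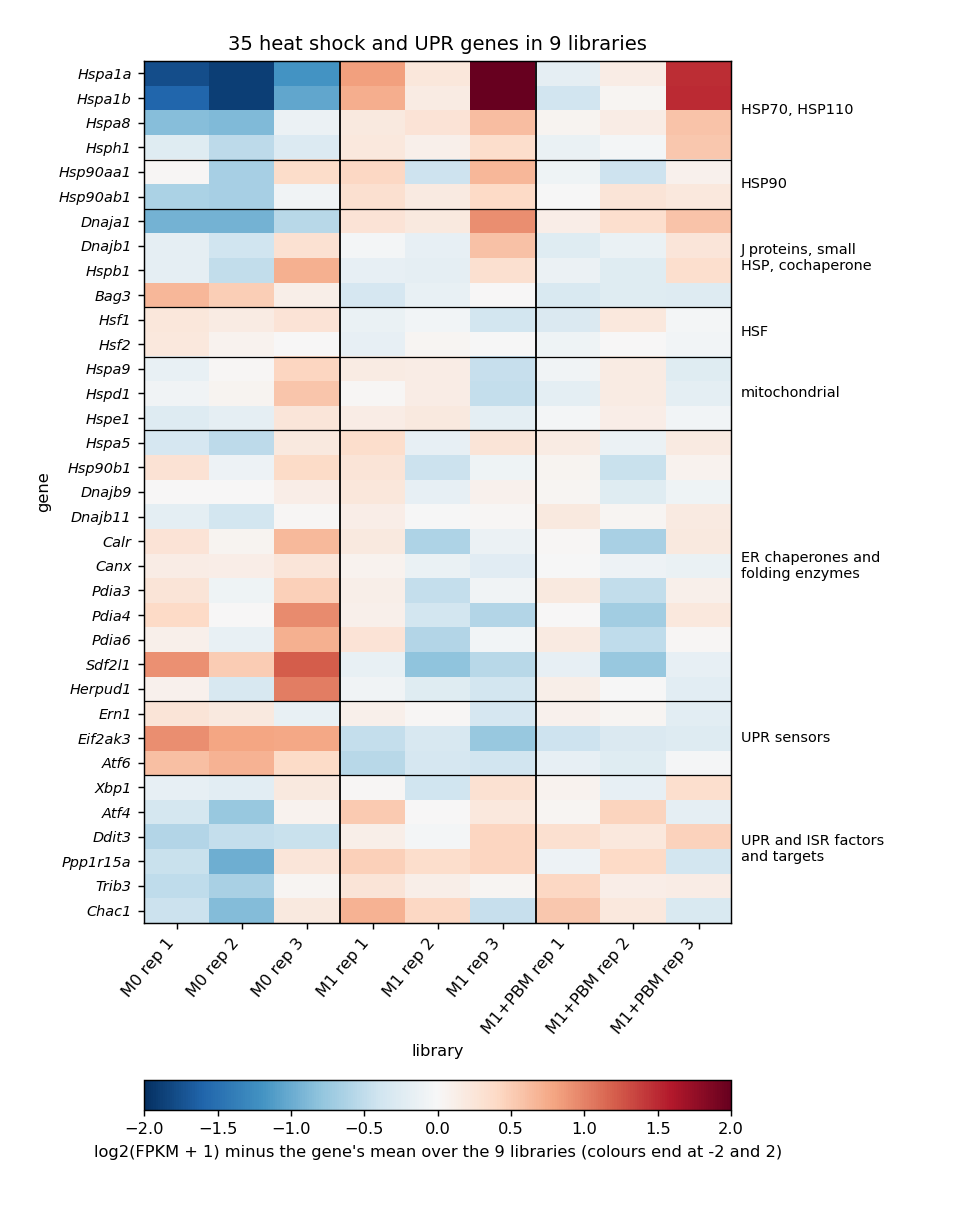
Heat map of the 35 genes (rows, grouped by role) in the 9 libraries (columns, grouped by condition); colour gives log2(FPKM + 1) minus the mean of that gene over the 9 libraries. Hspa1a and Hspa1b are low in the M0 columns and highest in M1 replicate 3, Sdf2l1, Eif2ak3 and Atf6 are highest in the M0 columns, and in most ER rows replicate 2 is the lowest M1 and the lowest M1+PBM column.

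The difference between M1 and M0 was read against a shift of all genes. Over 13915 rows, those that reached an FPKM of 1 in 3 or more of the 9 libraries, the median log2 difference was -0.34 as deposited and 0.04 after median-of-ratios scaling, and 10120 rows were lower in M1. The median over the 35 genes was 0.01 as deposited, and 25 of the 35 lay above the median of all rows. Differences of at least 2-fold without overlap between the groups, on the log2(FPKM + 1) scale, were found for 3 genes that were higher in M1 (Hspa1a, Hspa1b and Dnaja1), where 7.84% of all rows were so called. They were found for 2 genes that were lower in M1 (Sdf2l1 and Eif2ak3), where 13.6% of all rows were so called. Of any size without overlap, 9 genes were higher against 15.6% of all rows, and 6 were lower against 50.6% of all rows. After median-of-ratios scaling 8 genes were higher by at least 2-fold without overlap (Hspa8, Hsp90ab1, Atf4, Ddit3 and Ppp1r15a were added). None was lower, with Sdf2l1 at -0.89 and Eif2ak3 at -0.95 log2 units. Of the 13915 rows, 1660 were higher and 986 lower by these criteria after scaling, against 1091 and 1893 as deposited. Scaling turned the direction of 10 of the 35 (Hspb1, Hsf2, Hspa9, Hspd1, Hsp90b1, Calr, Canx, Pdia3, Pdia6 and Ern1), of which Canx alone had groups without overlap.

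**Figure D2:**
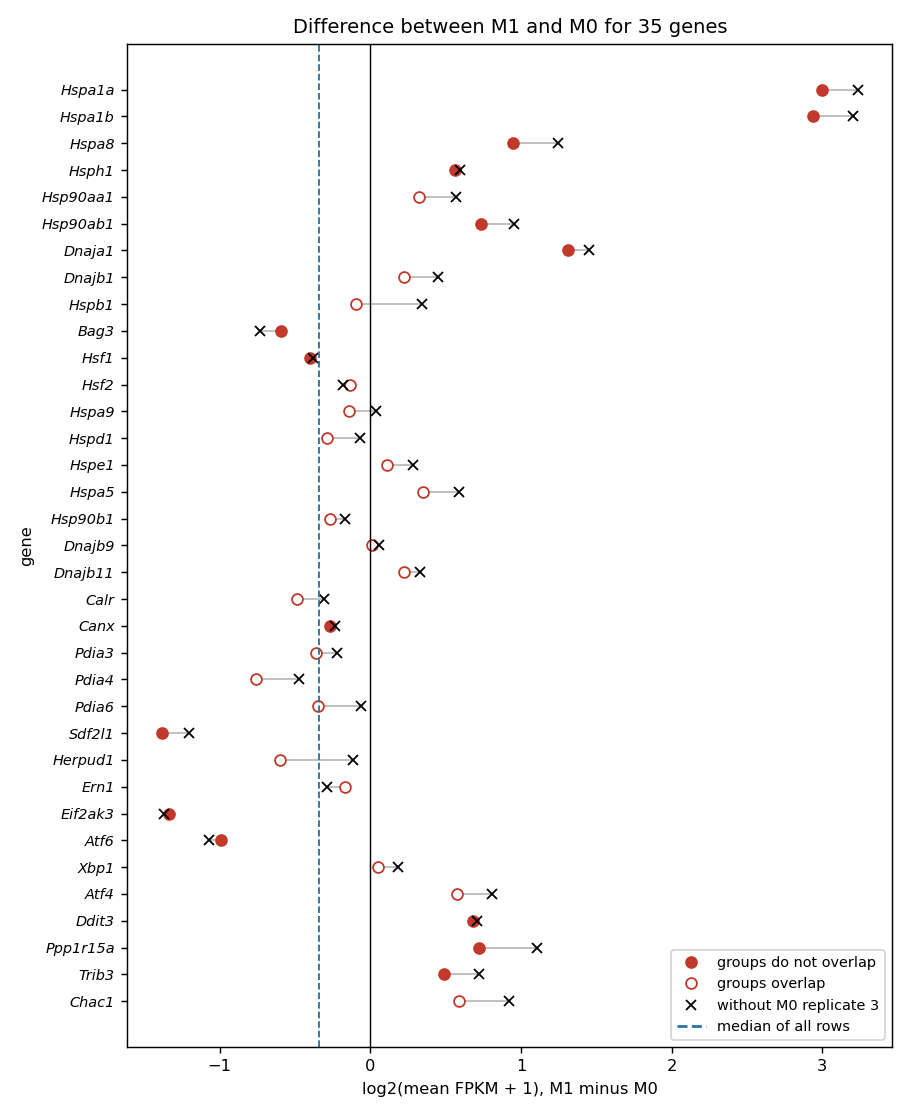
Difference between M1 and M0 in log2(mean FPKM + 1) for the 35 genes; filled points mark groups without overlap, open points overlapping groups, crosses the value without M0 replicate 3, and the dashed line the median of all 13915 rows. Hspa1a and Hspa1b lie near 3, and Sdf2l1 and Eif2ak3 are the 2 lowest.

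M0 replicate 3 bears on these differences. It was the highest of its group for 29 of the 35 genes (82.9%), where it was the highest for 39.0% of all rows. Without it, 5 genes were higher in M1 by at least 2-fold without overlap (Hspa8 and Ppp1r15a were added) and 3 were lower (Atf6 was added). Of the 13915 rows, 1247 were then higher and 1995 lower by these criteria, against 1091 and 1893 with M0 replicate 3 included. Of any size, 14 genes were then higher without overlap and 8 lower, against 18.7% and 57.4% of all rows. Its stromal and inflammatory transcripts moved with these levels, and their part in them was not tested.

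The stress-inducible HSP70 genes Hspa1a (ENSMUSG00000091971) and Hspa1b (ENSMUSG00000090877) showed the largest difference between M0 and M1 among the 35. They are neighbouring copies that encode nearly the same protein, and how fragments were divided between them is uncertain. The 250 bases before their starts, from RefSeq on GRCm38.p6, are shown because both carry the same inverted GAA pair. That of Hspa1a is chr17:34972157-34972406 (minus strand) and that of Hspa1b is chr17:34959239-34959488 (minus strand). Capitals mark this pair (GAANNTTC or TTCNNGAA), of whose GAA units the sites of heat shock factors are built, and which is held by 12.8% of 32851 such windows of all genes.
Hspa1a: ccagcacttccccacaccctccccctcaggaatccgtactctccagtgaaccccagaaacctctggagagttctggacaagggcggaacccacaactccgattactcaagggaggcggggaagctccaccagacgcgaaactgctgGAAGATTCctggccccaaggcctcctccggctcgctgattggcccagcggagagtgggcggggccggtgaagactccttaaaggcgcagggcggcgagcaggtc
Hspa1b: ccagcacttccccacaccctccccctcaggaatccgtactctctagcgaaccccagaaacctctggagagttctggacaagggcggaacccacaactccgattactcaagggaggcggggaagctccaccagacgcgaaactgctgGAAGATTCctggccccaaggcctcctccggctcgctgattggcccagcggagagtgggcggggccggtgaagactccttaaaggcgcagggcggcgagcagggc
The windows have the same base at 247 of 250 positions. Of the 29 genes of the group with a window, 8 held the inverted pair, namely Hspa1a, Hspa1b, Hsph1, Dnaja1, Hspb1, Hspd1, Hspe1 and Eif2ak3.

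Hspa1a was at 0.472, 0.364 and 1.18 FPKM in M0 replicates 1 to 3. It was at 7.89, 4.84 and 24.3 FPKM in M1, 18.4 times the M0 mean. In M1+PBM it was at 3.44, 4.55 and 12.9 FPKM. Every polarized library was above every M0 library, and replicate 3 was the highest in each of the 3 groups. Hspa1b was at 0.631, 0.332 and 1.39 FPKM in M0, at 7.12, 4.49 and 26.4 in M1, 16.1 times the M0 mean, and at 2.76, 4.03 and 12.8 in M1+PBM. The summed level of both genes, which depends less on how fragments were divided between them, was 25.0 FPKM ± 22.4 in M1 against 13.5 ± 10.7 with PBM (SD, n = 3). Both means rested on replicate 3, with 50.7 FPKM in M1 and 25.8 in M1+PBM. Within replicate numbers, the summed level in M1 was 2.42, 1.09 and 1.97 times that of M1+PBM. The 9 neutrophil markers ranked the libraries of M1 and of M1+PBM in the same order as Hspa1a, with sums of 19.6, 8.94 and 28.1 FPKM in M1 and 6.44, 9.49 and 15.2 in M1+PBM, against 1.53 to 2.44 in M0. Most of that sum was S100a8, at 16.7, 6.90 and 27.2 FPKM in M1 and 4.94, 6.94 and 14.5 in M1+PBM, while the defining markers S100a9 and Ly6g were listed at 0 throughout, and their part in the result was not tested.

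The log2 fold change of M1+PBM against M1 was -0.64 (SE 0.64) for Hspa1a and -0.74 (SE 0.71) for Hspa1b in the limma fit. Their adjusted p was 0.90, and the exact two-sided permutation test gave p = 0.5 for each, where 3 against 3 libraries allow no p below 0.1. Without M1 replicate 3 the log2 fold changes were -0.04 and -0.06, and without M1+PBM replicate 3 they were -1.14 and -1.30. The labels name no pairs, and same-numbered libraries were taken as pairs from a check of these same data. Both genes were lower in 3 of 3 such pairs. Once the replicate number entered the fit as a block, the SE fell to 0.20 and 0.21. The unadjusted p was then 0.026 and 0.020, and the adjusted p 0.58 (limma). At an unadjusted p of at most 0.05, 3.24% of all rows fell in the blocked fit (limma). With their fragments divided in an uncertain way, Hspa1a and Hspa1b are not independent results.

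Hspa8 (ENSMUSG00000015656) encodes the constitutive HSP70 of the cytosol. It was at 185, 181 and 309 FPKM in M0, at 385, 404 and 515 in M1, and between 349.6 and 500.3 in M1+PBM. All 6 polarized libraries were above the M0 libraries, by 1.93-fold for M1, and the 2 polarized groups overlapped. Hsph1, the HSP110 that acts as nucleotide exchange factor of HSP70, was at 3.40 to 4.35 FPKM in M0, 5.74 to 7.05 in M1 and 4.75 to 8.14 in M1+PBM. All 4 genes of this role were higher in M1 than in M0 without overlap, as were 15.6% of all rows, and stayed higher by their means after scaling. With PBM none of the 4 passed the test, and the log2 fold change was -0.10 for both Hspa8 (95% interval -0.55 to 0.35) and Hsph1 (-0.56 to 0.36). Without M1+PBM replicate 3, Hsph1 was at -0.31, with an unadjusted p of 0.047 (limma). With any other library left out it was between -0.16 and 0.028, at an unadjusted p of 0.50 to 0.94 (limma).

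Of the HSP90 genes, Hsp90ab1 (ENSMUSG00000023944), the constitutive form, was at 226, 222 and 333 FPKM in M0, at 439, 397 and 465 in M1, and at 351, 422 and 406 in M1+PBM. M1 stood above M0 without overlap by 1.67-fold. The inducible form Hsp90aa1 was at 31.1 to 64.3 FPKM in M0, 37.0 to 79.4 in M1 and 37.3 to 53.1 in M1+PBM, and the 3 groups overlapped. Its change with PBM was -0.35 (95% interval -1.06 to 0.35). Without M1 replicate 2, in which it was lowest, it was -0.67 at an unadjusted p of 0.013 (limma), where 1089 of 12238 rows passed an unadjusted p of at most 0.05. With any other library left out the change was between -0.47 and -0.13, at an unadjusted p of 0.22 to 0.66 (limma).

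Dnaja1 (ENSMUSG00000028410), a J protein that delivers clients to HSP70, was at 4.80, 4.84 and 6.59 FPKM in M0, at 12.6, 11.8 and 20.4 in M1, and at 11.2, 13.2 and 15.7 in M1+PBM. M1 was 2.76 times M0, with a gap between the groups. The J protein Dnajb1 was at 7.75 to 13.2 FPKM in M0 and 9.33 to 16.3 in M1, and the groups overlapped. Bag3, the HSP70 cochaperone of selective autophagy, was lower in M1 as deposited, with 21.2, 18.6 and 14.1 FPKM in M0 and 10.1, 11.6 and 13.0 in M1. Its groups did not overlap, as for 50.6% of all rows that were lower. Its log2 difference was -0.59 as deposited and -0.11 after scaling. The small heat shock protein Hspb1 stayed between 0.217 and 1.82 FPKM in all 9 libraries and was not tested with PBM because too few libraries reached an FPKM of 1. At most 58.9 fragments by an upper estimate stood behind any of its values.

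Replicate 3 was the highest M1 library for 10 of the 10 cytosolic chaperone and cochaperone genes, and the highest M1+PBM library for 8 of the 10. Over all rows, replicate 3 was the highest for 27.9% in M1 and 40.7% in M1+PBM. Of the heat shock factors, Hsf1, the main activator of these genes, was at 3.25 to 3.55 FPKM in M0 and 1.92 to 2.65 in M1, without overlap, and its difference was -0.40 as deposited and -0.04 after scaling. Hsf2 was at 1.87 to 2.31 FPKM in M0, 1.55 to 1.95 in M1 and 1.70 to 1.87 in M1+PBM. Neither mRNA level measures the activity of the factor.

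**Figure D3:**
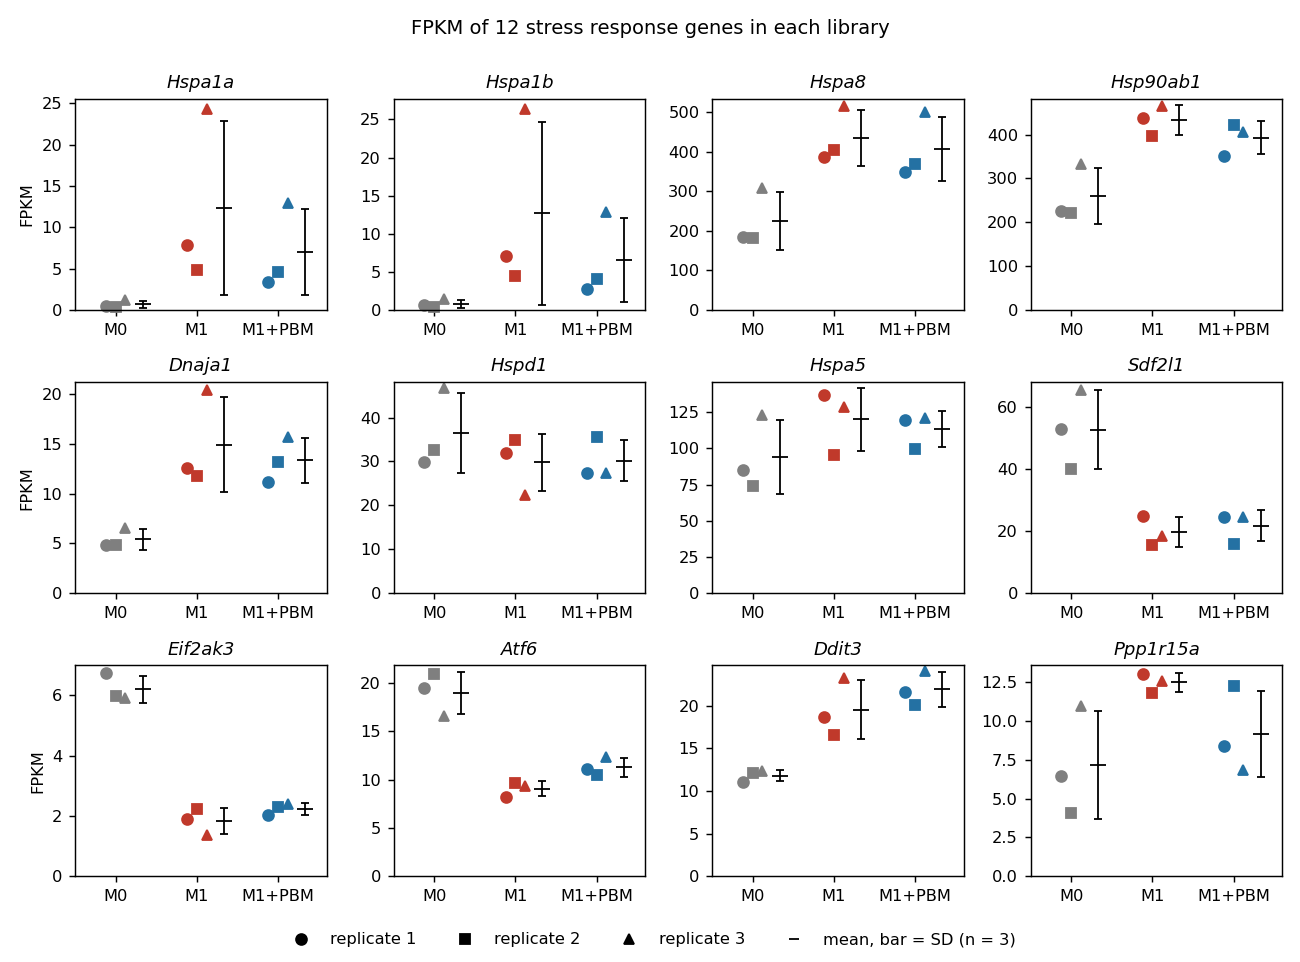
FPKM of 12 genes in each library by group, with circles, squares and triangles for replicates 1, 2 and 3, and the mean with its SD (n = 3) as a horizontal mark and bar. For Hspa1a and Hspa1b the triangle of replicate 3 is the highest of each group and sets the wide bar, while for Eif2ak3, Sdf2l1 and Atf6 all M0 points lie above all other points.

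The 3 groups overlapped for each of the 3 mitochondrial chaperones. Hspa9, the mitochondrial HSP70, averaged 41.9 ± 9.13, 37.8 ± 8.91 and 37.5 ± 5.52 FPKM in M0, M1 and M1+PBM (SD, n = 3). Hspd1 (HSP60) averaged 36.5 ± 9.08, 29.8 ± 6.51 and 30.2 ± 4.72 FPKM, and its partner Hspe1 (HSP10) 20.2 ± 4.18, 21.9 ± 3.27 and 21.1 ± 1.64 FPKM (SD, n = 3). Within M1 all 3 genes were lowest in replicate 3, which was the lowest M1 library for 51.6% of all rows. Hspd1 and Hspe1 are transcribed away from each other. A triplet of GAA units (GAANNTTCNNGAA or TTCNNGAANNTTC), held by 0.466% of all windows, lay in the windows of both genes. No other of the 29 genes of the group with a window held this triplet. It is shown on the strand of Hspd1 with its neighbouring bases, at chr1:55088039-55088096 (minus strand), and capitals mark overlapping matches.
Hspd1: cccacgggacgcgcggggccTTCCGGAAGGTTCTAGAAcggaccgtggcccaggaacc
With PBM the log2 fold changes were 0.01 for Hspa9, 0.03 for Hspd1 and -0.04 for Hspe1, with 95% intervals within -0.49 and 0.50.

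The windows of ER chaperones and folding enzymes are shown with the ER stress response element, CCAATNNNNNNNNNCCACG, because 5 of the 11 carried it while 0.113% of all windows did. Each stretch is given 5′ to 3′ on the strand of its gene, with the element or its reverse complement in capitals, from RefSeq on GRCm38.p6. The stretches are chr2:34772005-34772063 (plus strand) for Hspa5, chr10:86705513-86705676 (minus strand) for Hsp90b1, chr8:84847055-84847113 (minus strand) for Calr, chr11:50325780-50325838 (minus strand) for Canx and chr12:17266471-17266529 (plus strand) for Pdia6.
Hspa5: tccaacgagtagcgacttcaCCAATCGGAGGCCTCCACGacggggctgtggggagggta
Hsp90b1: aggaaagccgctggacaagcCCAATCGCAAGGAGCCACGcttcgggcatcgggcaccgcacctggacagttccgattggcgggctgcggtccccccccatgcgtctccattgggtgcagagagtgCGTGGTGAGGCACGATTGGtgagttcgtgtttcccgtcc
Calr: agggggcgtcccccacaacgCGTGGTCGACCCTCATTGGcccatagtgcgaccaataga
Canx: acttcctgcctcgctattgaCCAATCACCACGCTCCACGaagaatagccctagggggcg
Pdia6: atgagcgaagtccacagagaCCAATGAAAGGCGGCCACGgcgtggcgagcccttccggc
The element was found once in 4 of these windows and at 2 places in that of Hsp90b1. Both strands were searched for every motif. The 5 genes did not share a direction between M0 and M1, since as deposited Hspa5 was higher and the other 4 were lower, while after scaling all 5 had differences above 0, from 0.02 for Calr to 0.86 for Hspa5.

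Hspa5 (BiP, ENSMUSG00000026864), the HSP70 of the ER and a common measure of ER stress, was at 84.9, 74.0 and 123 FPKM in M0, at 137, 95.2 and 129 in M1, and at 120, 99.2 and 121 in M1+PBM. The M0 and M1 libraries overlapped through M0 replicate 3. Hsp90b1, the HSP90 of the ER, was at 78.5 to 111 FPKM in M0, 62.9 to 101 in M1 and 61.7 to 89.2 in M1+PBM. The lectin chaperones Calr and Canx averaged 241 and 91.2 FPKM in M0, 171 and 75.5 in M1, and 177 and 76.3 in M1+PBM.

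Sdf2l1 (ENSMUSG00000022769), a partner of BiP and its J proteins, was the ER gene with the largest difference. It was at 52.8, 39.8 and 65.2 FPKM in M0, at 24.9, 15.4 and 18.4 in M1, and at 24.5, 15.9 and 24.5 in M1+PBM. The M0 mean was 2.69 times the M1 mean, and the lowest M0 library was above the highest polarized library. The protein disulfide isomerases Pdia3, Pdia4 and Pdia6 averaged 79.9, 37.6 and 33.6 FPKM in M0 and 62.1, 21.8 and 26.2 in M1, and their groups overlapped. The BiP-associated J proteins Dnajb9 and Dnajb11 averaged 6.53 and 15.4 FPKM in M0 and 6.60 and 18.1 in M1. Herpud1, which serves ER-associated degradation, was at 9.49, 6.91 and 19.1 FPKM in M0 and at 6.69 to 8.44 in M1, so that M0 replicates 1 and 3 lay above the M1 libraries and replicate 2 among them.

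All 11 ER genes were highest in replicate 3 within M0 and in replicate 1 within M1, the highest libraries for 39.0% and 25.6% of all rows. Replicate 2 was the lowest M1 library for 8 of them and the lowest M1+PBM library for 9, where it was the lowest for 26.4% and 36.5% of all rows. The 11 ER genes summed to 737, 619 and 928 FPKM in M0, to 734, 487 and 610 in M1, and to 678, 488 and 690 in M1+PBM. The 6 stromal markers were also lowest in replicate 2 of each group, with sums of 6.49, 5.28 and 181 FPKM in M0, 11.5, 8.44 and 12.2 in M1, and 20.9, 3.32 and 25.9 in M1+PBM, and their part in the result was not tested. None of the 11 passed the test with PBM, and their log2 fold changes ran from -0.15 (Dnajb9) to 0.19 (Herpud1).

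Of the UPR sensors, Eif2ak3 and Atf6 were lower in M1 than in M0 without overlap, as were 50.6% of all rows. Eif2ak3 (PERK, ENSMUSG00000031668), the kinase that phosphorylates eIF2α, was at 6.71, 5.96 and 5.92 FPKM in M0, at 1.91, 2.24 and 1.38 in M1, and at 2.03, 2.28 and 2.38 in M1+PBM. Its M0 mean was 3.36 times its M1 mean, with a wide gap between the groups. Atf6 (ENSMUSG00000026663), the membrane-bound transcription factor, was at 19.4, 20.9 and 16.6 FPKM in M0, at 8.19, 9.63 and 9.33 in M1, and at 11.0, 10.4 and 12.3 in M1+PBM. Its M0 mean was 2.09 times its M1 mean, which on the log2(FPKM + 1) scale was a difference of -0.99. Ern1 (IRE1), the nuclease that splices Xbp1, was at 8.90 to 12.2 FPKM in M0 and 7.73 to 10.9 in M1, and these overlapped. After scaling the differences were -0.95 for Eif2ak3, -0.52 for Atf6 and 0.29 for Ern1.

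Atf6 was the 1 gene of the 34 tested that rose with PBM at an unadjusted p of at most 0.05, where 2.99% of the 12238 rows tested rose at that level, and none of the 34 fell, where 1.45% of rows did. Every M1+PBM library lay above every M1 library, which held for 8.51% of rows, and no gene of the group showed the reverse, which 2.52% of rows did. The log2 fold change was 0.29 (SE 0.11, 95% interval 0.03 to 0.54), at an unadjusted p of 0.034 and an adjusted p of 0.90 (limma), and it was higher in 3 of 3 pairs. The exact two-sided permutation test gave p = 0.1, the smallest it can give here. The change was 0.21 after median-of-ratios scaling and 0.25 after quantile normalization, and there p was 0.088 and 0.053 (limma, unadjusted). Leaving out M1 replicate 1, M1+PBM replicate 1 or M1+PBM replicate 3 also lost the call, at a change of 0.22, 0.30 and 0.23. The M1+PBM level of Atf6 remained below all 3 M0 libraries.

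Of the 6 factors and targets of the UPR and ISR, 3 were higher in M1 than in M0 without overlap, as were 15.6% of all rows, and for the other 3 the groups overlapped. Ddit3 (CHOP, ENSMUSG00000025408), a transcription factor of prolonged ER stress, was at 11.0, 12.0 and 12.3 FPKM in M0, at 18.7, 16.6 and 23.3 in M1, and at 21.6, 20.01 and 24.0 in M1+PBM. A further annotated row with the same symbol was listed at no more than 0.00611 FPKM and was left aside. Ppp1r15a (GADD34, ENSMUSG00000040435), the phosphatase subunit that reverses eIF2α phosphorylation, was at 6.43, 4.09 and 10.9 FPKM in M0 and at 13.0, 11.8 and 12.6 in M1. Trib3, a pseudokinase induced by ATF4 and CHOP, was at 1.93 to 3.67 FPKM in M0 and 3.71 to 4.48 in M1. These 3 genes did not overlap between M0 and M1, although for Trib3 the gap was narrow.

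Atf4, the central factor of the ISR, was at 42.1, 31.4 and 56.6 FPKM in M0, at 78.3, 54.2 and 62.7 in M1, and at 55.3, 73.6 and 47.7 in M1+PBM. Its groups overlapped, as did those of Chac1, a glutathione-degrading target of ATF4 with 0.565 to 2.26 FPKM in M0 and 1.08 to 3.58 in M1. Xbp1 averaged 10.3, 10.7 and 11.5 FPKM in M0, M1 and M1+PBM, and gene-level values do not show its splicing.

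With PBM, Ppp1r15a was at 8.40, 12.2 and 6.82 FPKM, so that 2 of the 3 libraries were below all M1 libraries and the other lay within them. Its log2 fold change was -0.44 (95% interval -0.91 to 0.03), at an unadjusted p of 0.061 (limma). The unadjusted p (limma) was 0.045 after median-of-ratios scaling, 0.056 after quantile normalization and 0.12 without moderation of the variance. Without M1+PBM replicate 2 it was 0.0029, where 930 of 12238 rows had an unadjusted p of at most 0.05. With any other library left out it was between 0.090 and 0.17. The log2 fold change ran from -0.65 to -0.27 with a library left out, and the exact two-sided permutation test gave p = 0.2. Ddit3 was higher in 3 of 3 pairs, with a log2 fold change of 0.17 (95% interval -0.18 to 0.52), and did not pass the test. Atf4 was lower in pairs 1 and 3 and higher in pair 2.

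**Figure D4:**
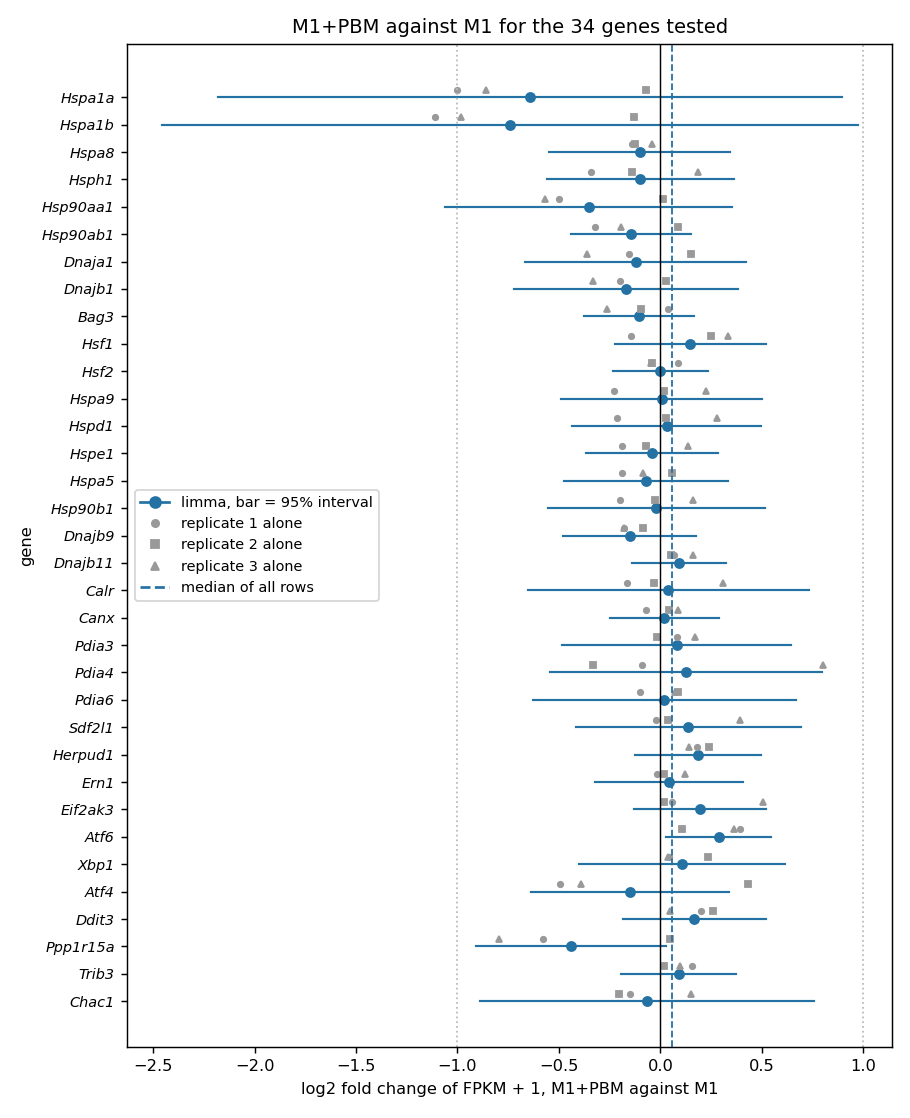
Log2 fold change of M1+PBM against M1 on the log2(FPKM + 1) scale for the 34 genes tested, with the 95% interval of limma as a bar and the change of each replicate pair as a grey mark; dotted lines stand at 1 log2 unit on either side of 0 and the dashed line at the median of all rows, 0.06. Atf6 alone has an interval that leaves out 0, and the intervals of Hspa1a and Hspa1b are the widest.

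The comparison with PBM shares its M1 libraries with the comparison with M0. By an unadjusted p of at most 0.05 and a change of at least 2-fold, 32 of 12238 rows (0.261%) passed and none of the 34 genes did. At an adjusted p under 0.05 (limma), 0.00817% of rows passed and none of the 34, of which 1 had an unadjusted p of at most 0.05 (4.44% of rows did). The median log2 fold change of the 34 was 0.003, beside 0.06 for all rows. By sign alone 18 of the 34 were higher and 16 lower, where 8026 of the 12238 rows were higher and 4212 lower. For 31 of the 34 the 95% interval lay within 1 log2 unit of 0, the exceptions being Hspa1a, Hspa1b and Hsp90aa1. With the replicate block 3 of the 34 passed an unadjusted p of at most 0.05 (Atf6 higher, Hspa1a and Hspa1b lower), where 8.07% of rows did. Hspa1a and Hspa1b are not independent of each other, and the pairs rest on a check of the same data. In all 3 pairs, 7 genes were higher (Dnajb11, Herpud1, Eif2ak3, Atf6, Xbp1, Ddit3 and Trib3) against 25.5% of rows, and 4 were lower (Hspa1a, Hspa1b, Hspa8 and Dnajb9) against 10.1% of rows.

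The groups of genes that neighbour these in function were counted in the same fits. Their counts without overlap between M0 and M1 stand beside 15.6% of all rows higher in M1 and 50.6% lower. Their counts by the unadjusted p with PBM stand beside 2.99% of all rows that rose and 1.45% that fell. With the replicate block these shares were 4.84% and 3.24%. Of 29 further cytosolic chaperones and cochaperones, 7 were higher and 8 lower in M1 than in M0 without overlap, and 1 by at least 2-fold, the HSP90 cochaperone Fkbp4, at 16.5, 17.4 and 27.1 FPKM in M0 and 9.13, 11.1 and 7.81 in M1. Next among the lower genes was the cochaperone Bag5, with a log2 difference of -0.86. The J protein Dnaja2 and the HSP70-HSP90 adaptor Stip1 led those that were higher, by 0.54 and 0.53 log2 units. With PBM 1 of the 29 fell by the unadjusted p (the J protein Dnajb4, log2 fold change -0.31) and none rose, whereas with the replicate block Bag5 rose (0.31) and Hspa4l fell (-0.28). Of 11 further mitochondrial proteostasis genes, 1 was higher (the protease Yme1l1, by 0.36) and 6 lower in M1 without overlap, led by the proteases Clpp (-0.67) and Lonp1 (-0.52). With PBM 1 of the 11 rose (the protease Htra2, log2 fold change 0.34) and none fell.

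Of 32 further genes of ER folding and degradation, 4 were higher and 17 lower in M1 without overlap. The ubiquitin ligase Syvn1 (HRD1) was at 11.0, 11.1 and 12.1 FPKM in M0 and at 18.5, 15.0 and 22.0 in M1, whereas Edem1, which directs misfolded glycoproteins to degradation, was at 48.0, 41.7 and 46.5 in M0 and at 20.6, 18.0 and 21.4 in M1. Selenos was higher by 0.55 and the oxidase Ero1lb lower by a log2 difference of -1.12. None of the 32 passed the test with PBM. Of 27 further ISR genes, 7 were higher in M1 without overlap, each by at least 2-fold, and 4 were lower. Slc7a11, the cystine transporter, was at 1.17, 1.72 and 2.75 FPKM in M0, at 38.8, 34.1 and 13.9 in M1, and at 10.0, 21.4 and 5.82 in M1+PBM. Nupr1, a small stress-induced nuclear protein, was higher by 2.39 log2 units, while the serine and gluconeogenic enzymes Shmt2 and Pck2 had differences of -1.52 and -1.38. With PBM 1 of the 27 rose by the unadjusted p (Pck2, log2 fold change 0.30) and 1 fell (the transcription factor Cebpb, -0.38), beside 2.99% and 1.45% of all rows. With the replicate block none of the 27 rose and 3 fell at that level, Slc7a11 (-1.21), Atf3 (-0.34) and Cebpb (-0.38), beside 4.84% and 3.24% of all rows. Without the block, none of these 4 lists held a gene that passed both the p and the 2-fold threshold with PBM, as 0.261% of all rows did. Of the 8 M1 polarization markers 3 passed both, all lower with PBM (Nos2, Il6 and Il1b). These markers were listed with earlier results of these data known, and the paper had named Il6 and Nos2 among genes that differed with PBM. Their count is therefore no independent contrast to the 4 lists.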

How the data were processed

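RNA was sequenced from 3 M0, 3 M1 and 3 M1+PBM libraries, and samples were grouped by their labels. Expression stands in 2 deposited tables of FPKM, of which 1 holds M0 and the other holds the remaining 6 libraries. The authors' methods name Cufflinks methods, and the submitters' processing notes list Bowtie 0.12.2 and the build mm9 with no role stated. Symbols came from GENCODE M21 and were found for 55154 of 55655 rows. No genome of the build of the files was used, so coordinates are those of RefSeq windows.

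The low FPKM values place the depth at 30930000 to 42150000 fragments a library, but 25.9% to 27.3% of them were whole multiples of 1 fragment (within 0.05), where an even spread gives 10%, and no counts were recovered. Precision is limited by 3 libraries a group. M1+PBM was compared with M1 with limma 3.58.1 (R 4.3.3, eBayes with trend) on log2(FPKM + 1), over 12238 rows that reached an FPKM of 1 in 3 or more of 6 libraries, with Benjamini-Hochberg adjustment over all of them. The fit was tested on simulated data with independent noise and with changes larger than any found with PBM for the genes described. That test does not cover changes of their size. M1 and M0 were compared by their means and by overlap, with no test.

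All 35 genes are named, and of the neighbouring lists those that passed p and fold with PBM and the 2 largest differences without overlap in each direction between M0 and M1. The genes and lists were chosen with earlier results of these data known. Tnf, S100a8, Dnajb4, Hspa4l, Htra2, Atf3 and Cebpb were picked for mention once their values were known. Same-numbered M1 and M1+PBM libraries deviated together from their group means (r = 0.157, 0.469 and 0.462, different numbers -0.491 to 0.0328), so the numbers were taken as pairs from this check of the data. The deviations of a group sum to 0 for each gene, so positive values for same numbers push those for different numbers down. The labels name no pairs, and the blocked fit rests on this check of the same data. Alternatives were other pseudocounts, filters, scalings and variance models, a replicate block, and each library left out.

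Marker lists of dendritic, lymphoid and erythroid cells summed to at most 1.10, 0.504 and 0.515 FPKM in any library.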

Additional observations from a re-analysis of the deposited data

How the results depend on the processing

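Of 471 log2 fold changes with PBM recomputed for single genes, 411 kept their direction and their side of the unadjusted threshold, 49 changed sign, 6 passed it newly and 5 no longer passed it. Those that passed it newly, beside Hspa1a, Hspa1b and Ppp1r15a, were Hsp90aa1 when M1 replicate 2 was left out (-0.67) and Hsph1 when M1+PBM replicate 3 was (-0.31). After median-of-ratios scaling the sign changed for Hsf2 (-0.051), Hspa9 (-0.072), Hspd1 (-0.046), Calr (-0.041), Canx (-0.061), Pdia6 (-0.058) and Ern1 (-0.030), and after quantile normalization for Hsf2 (-0.056), Hsp90b1 (0.0020) and Ern1 (-0.0019). With each library left out in turn, the log2 fold change ran from -0.062 to 0.044 for Hsf2, -0.17 to 0.033 for Hspe1, -0.23 to 0.029 for Hspa5, -0.19 to 0.15 for Hsp90b1, -0.40 to 0.17 for Chac1, -0.18 to 0.29 for Calr, -0.042 to 0.10 for Canx, -0.087 to 0.30 for Pdia3, -0.22 to 0.22 for Pdia6, -0.011 to 0.34 for Sdf2l1, -0.080 to 0.27 for Xbp1, -0.26 to 0.026 for Hspa8, -0.26 to 0.11 for Dnaja1, -0.31 to 0.058 for Dnajb1, -0.20 to 0.11 for Hspa9, -0.15 to 0.15 for Hspd1, -0.058 to 0.39 for Pdia4, -0.092 to 0.13 for Ern1, -0.31 to 0.028 for Hsph1, -0.00094 to 0.15 for Trib3.

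The 32 rows past p and fold became 75 with a pseudocount of 0.1, 13 without moderation of the variance, and 27 to 89 with a library left out (69 when M1 replicate 2 was left out, 89 when M1+PBM replicate 2 was). The row at an adjusted p under 0.05 was lost without moderation. The 1 gene of the group that rose became 0 after median-of-ratios scaling, 0 after quantile normalization and 0 to 1 with a library left out. The count that fell, 0, became 1 after median-of-ratios scaling, 2 with the replicate block and 0 to 1 with a library left out. Of all rows, 366 rose and 177 fell at an unadjusted p of at most 0.05 (limma). These became 237 and 283 after median-of-ratios scaling, 260 and 254 after quantile normalization, and 592 and 396 with the replicate block. With a library left out, 153 to 763 rows rose and 106 to 326 fell. The replicate block changed no call of another of the 34 genes, and those it changed in the neighbouring lists are given with them. The median of the group ran from -0.083 to 0.11 with a library left out.

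Between M1 and M0, 3 genes higher by at least 2-fold became 8 after median-of-ratios scaling and 3 to 5 with a library left out (5 without M0 replicate 3). The 2 lower ones became 0 after scaling, 0 at 3-fold and 2 to 3 with a library left out. Of the 13915 rows, the 1091 higher ones became 1660 after scaling and 1064 to 1247 with a library left out. The 1893 lower rows became 986 after scaling, 715 at 3-fold and 1727 to 2193 with a library left out. The cause was not tested in any of these. Fragments behind Hspb1 (6.87 to 58.9 by an upper estimate) and Chac1 (31.4 to 233) limit their precision.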
